A study of Mus musculus with 4 samples.

Results

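Trimethylation of histone H3 at lysine 9 (H3K9me3), which marks silent chromatin, was examined at the solute carrier genes of embryonic mouse microglia, the brain's resident macrophages. A region was taken where the gene with the nearest transcription start, or the gene whose intron or exon holds the region, had a symbol beginning with Slc and a digit or with Slco. This gave 68 of the 5432 regions in the authors' deposited lists, linked to 57 genes of 27 symbol families. The gene was both the nearest start and the holder in 23 regions, the nearest start alone in 24 and the holder alone in 21. Of the 57 genes, Slc9a3r2 encodes a scaffold protein that binds a sodium-proton exchanger and Slc25a5-ps is a pseudogene, so that 55 genes and 66 regions concerned transport proteins.

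The libraries came from microglia sorted from the telencephalon of C57BL/6 mouse embryos at embryonic day 14 by the sample characteristics, and a little later by the protocol. The group called WT in the titles was Arid1afl/fl, so the controls carried the floxed gene too. The group called KO was Arid1acKO-Cx3cr1, named for loss of Arid1a driven from Cx3cr1, a gene of microglia that other myeloid cells also express. The protein of Arid1a belongs to the chromatin remodeller SWI/SNF. CUT&Tag, in which an antibody guides a transposase to marked chromatin, gave 4 libraries, for each genotype 1 with the H3K9me3 antibody and 1 with IgG, each from 100000 cells. The labels do not say how many embryos were pooled. The lists name regions with more H3K9me3 in KO (3488 regions, the higher list) and with less (1944 regions, the lower list). They hold no value per library, so depth is unknown, and no difference below has a replicate check or a p-value. Arid1a and Cx3cr1 each had 0 rows, and neither the loss of Arid1a nor the labelled cell type could be checked in these lists.

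Solute carriers move ions, sugars, amino acids, vitamins, metals and drugs across membranes, and the families are numbered by sequence and substrate. Members of the SLC25 family sit in the inner mitochondrial membrane and many of the SLC35 family in the Golgi apparatus, where nucleotide sugars feed glycosylation. In the brain, glutamate carriers of the SLC1 family clear the transmitter into glia and neurons, those of the SLC17 family load it into synaptic vesicles, and microglia use sugar, cystine and ion carriers to fuel and regulate their response to injury. H3K9me3 over a gene or its start is generally a mark of repression, and in introns and intergenic sequence it often lies on repeats.

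Of the 68 solute carrier regions, 39 were in the higher list and 29 in the lower list, a share higher of 57.4% (exact 95% interval 44.8 to 69.3). Over all 5432 regions the share higher was 64.2%, which lies inside that interval, and the share lower was 35.8%. The intervals cover counting error only. By gene, 30 had higher regions alone, 22 lower regions alone and 5 had a region in each list. By nearest start, these counts were 22, 16 and 3 of 41 carrier genes. Over all regions they were 2895, 1553 and 293 of 4741 genes. Of 386 protein-coding solute carrier genes in the RefSeq table, 34 (8.81%) had a higher region, against 7.32% of all 21887 protein-coding genes, and 27 (6.99%) had a lower region, against 4.60%. Solute carrier genes were longer than protein-coding genes in general, with a median of 29.6 kb against 17.2 kb. Per length of gene body, solute carriers held 1.80 higher regions per Mb (1.26 to 2.50) against 1.31 over all protein-coding genes, and 1.05 lower regions per Mb (0.651 to 1.61) against 0.796. Both intervals hold the value for all genes. The part of gene length in the share of genes was not tested.

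Promoter-class regions, which lie within 3 kb of a transcription start, were listed at 8 carrier genes. The upstream sequence is shown for the 5 whose RefSeq window lay outside the gene body and within 2 kb of the region, so that the bases shown are upstream of the gene and near the listed mark. Each run is the 250 bases before the RefSeq start (GRCm38.p6), read 5' to 3' on the strand of the gene, with CG dinucleotides in capitals. Slc1a3 and Slc15a5 were in the higher list, and Slc35c1, Slc35e3 and Slc25a36 in the lower list.
Slc1a3: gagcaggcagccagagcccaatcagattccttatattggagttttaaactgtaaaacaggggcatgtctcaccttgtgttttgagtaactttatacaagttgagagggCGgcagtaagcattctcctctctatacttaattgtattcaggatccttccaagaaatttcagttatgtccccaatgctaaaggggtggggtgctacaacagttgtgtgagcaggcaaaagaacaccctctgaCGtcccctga
Slc15a5: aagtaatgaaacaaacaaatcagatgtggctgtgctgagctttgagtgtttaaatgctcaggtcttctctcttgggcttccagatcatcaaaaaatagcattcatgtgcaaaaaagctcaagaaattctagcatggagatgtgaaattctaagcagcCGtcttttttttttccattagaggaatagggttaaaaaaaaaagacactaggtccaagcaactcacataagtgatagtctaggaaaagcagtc
Slc35c1: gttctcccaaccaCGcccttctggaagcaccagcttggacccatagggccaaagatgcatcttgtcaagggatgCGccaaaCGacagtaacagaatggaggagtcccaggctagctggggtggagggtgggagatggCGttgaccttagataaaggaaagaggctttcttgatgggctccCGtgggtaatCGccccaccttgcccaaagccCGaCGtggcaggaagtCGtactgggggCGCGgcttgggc
Slc35e3: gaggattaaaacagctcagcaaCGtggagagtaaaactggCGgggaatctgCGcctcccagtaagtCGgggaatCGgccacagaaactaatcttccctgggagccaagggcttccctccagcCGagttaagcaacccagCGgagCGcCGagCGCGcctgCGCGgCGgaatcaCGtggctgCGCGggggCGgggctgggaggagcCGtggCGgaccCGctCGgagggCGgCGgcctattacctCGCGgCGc
Slc25a36: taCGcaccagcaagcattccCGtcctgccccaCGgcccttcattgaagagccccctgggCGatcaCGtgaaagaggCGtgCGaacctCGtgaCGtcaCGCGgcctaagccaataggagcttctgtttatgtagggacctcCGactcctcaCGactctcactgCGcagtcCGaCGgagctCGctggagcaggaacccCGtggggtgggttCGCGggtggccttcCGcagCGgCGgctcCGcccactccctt

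The windows lie at chr15:8710808-8711057, chr6:138079917-138080166, chr2:92460519-92460768, chr10:117746359-117746608 and chr9:97111042-97111291, all on the minus strand. The listed regions did not reach them. The gap was 1869 bases at Slc1a3, 588 at Slc15a5, 1714 at Slc35c1, 949 at Slc35e3 and 1571 at Slc25a36. The printed windows of the higher pair were poor in CG, with 2 at Slc1a3 and 1 at Slc15a5, and those of the lower genes held 11 at Slc35c1, 27 at Slc35e3 and 24 at Slc25a36. The window of Slc30a2, a higher gene whose window is not printed because it lies inside the gene body, was 1038 bases from its region and held 20. Of 55 carrier genes with regions, 47 had an upstream window in the RefSeq table, with a median of 15 CG dinucleotides in the 24 genes of the higher list alone and 10 in the 19 of the lower list alone. The median was 11 over 306 solute carrier genes and 6 over 27025 genes. That larger set was not limited to protein-coding genes, so its values are not a matched background for carriers. The GC box GGGCGG, searched on both strands, was in 15 of the 24 and 7 of the 19 windows, in 50.7% of solute carrier windows and in 32.9% of all windows. The letters TATAAA, also on both strands, were in 3 of 24, 1 of 19, 9.15% of solute carrier windows and 12.97% of all windows. The 4 genes in both lists had a median of 6.5 CG dinucleotides, and 1 of them had the GC box. Differences between the lists in these windows were not tested.

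Carriers of inorganic ions were mostly in the higher list and those of sugars mostly in the lower list. Of 15 regions at ion carriers, 13 were higher and 2 lower, 86.7% higher (59.5 to 98.3), an interval that holds the 64.2% of all regions. Of 16 regions at carriers of sugars, sugar phosphates and nucleotide sugars, 5 were higher and 11 lower, 31.2% higher (11.02 to 58.7). The upper end of that interval is below 64.2%, but it reached 65.1% with each gene counted once and 81.6% when only the gene that holds the region counted. The difference between the classes was not tested, since there is 1 library per genotype, and these 2 classes, which have the most regions, were singled out among 9 after their values were seen. Neurotransmitter carriers had 3 higher and 0 lower regions, the carboxylate class 1 and 0, metal carriers 3 and 2, amino acid and peptide carriers 5 and 3, mitochondrial carriers 2 and 3, carriers of vitamins, nucleosides and lipids 2 and 3, and carriers of organic anions and cations 4 and 4. In each of these 7 classes the interval spans the share over all regions.

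**Figure D1:**
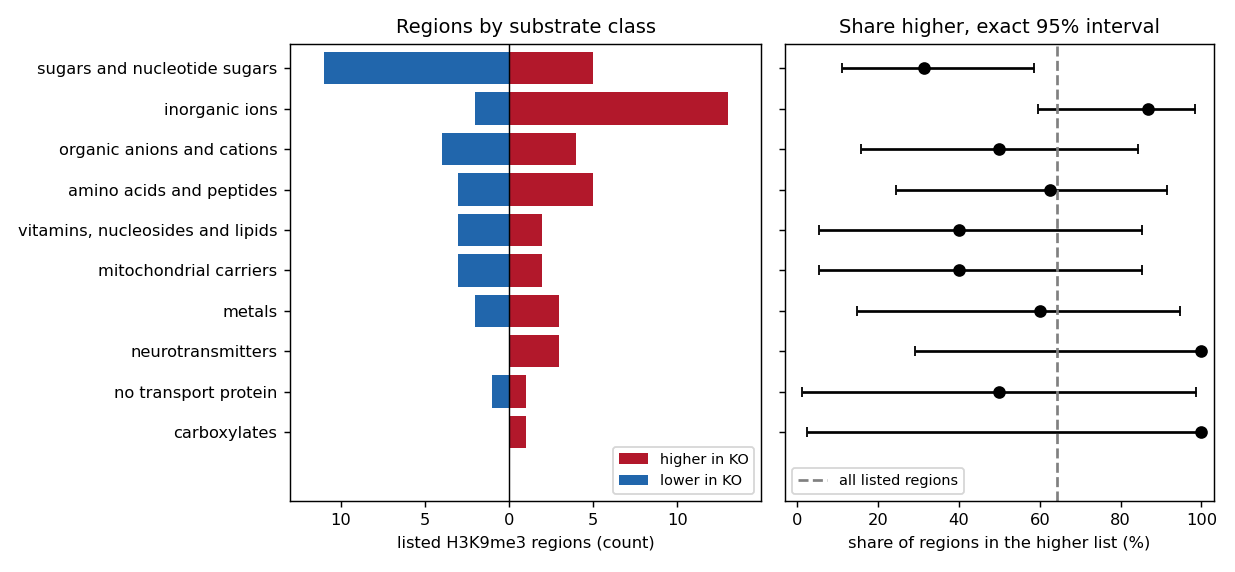
Listed H3K9me3 regions by substrate class of the solute carrier gene (left, count of regions to the right of 0 for the higher list and to the left for the lower list) and the share of each class in the higher list in percent (right, points with exact 95% intervals; the dashed line is the 64.2% of all listed regions). Inorganic ion carriers have 13 higher and 2 lower regions and sugar carriers 5 and 11.

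Among ion carriers, the bicarbonate family SLC4 and the sodium-proton exchangers of the SLC9 family made up most of the higher regions. Slc4a4, the sodium bicarbonate cotransporter that astrocytes use to regulate pH, had 2 regions, in introns 7 and 8 of the transcript given, with the authors' own peak scores, whose scale is not stated, of 2.04 and 2.82. They lay at chr5:89090894-89091340 and chr5:89125099-89125516, 33.8 kb apart. Slc4a8, a sodium-driven chloride-bicarbonate exchanger of neurons, had a region of score 4.198 in intron 14, the highest among the ion carriers, and 83.0% of the higher list scored no more. Slc4a5, a bicarbonate cotransporter of the choroid plexus, had a region of 1.69 in intron 3. All 4 SLC4 regions were thus in the higher list (exact interval 39.8 to 100%, against 64.2% over all regions), and all 4 were intronic.

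The SLC9 transporters had 6 regions, all in the higher list, and the seventh region of that symbol family was the lower one of the scaffold gene Slc9a3r2. For the symbol family the share higher was 85.7% (42.1 to 99.6), an interval that holds the 64.2% of all regions. Slc9a7, a sodium-proton exchanger of the Golgi on chromosome X, held 2 regions, in introns 3 and 12, with scores of 3.69 and 2.82. Slc9a9, the exchanger of recycling endosomes and the longest solute carrier gene at 560.9 kb, had a region of 2.17 in intron 2, 38.5 kb from its start. Slc9a8 (1.95) and Slc9a4 (2.04), exchangers of the Golgi and of the gastric epithelium, had 1 intronic region each. The region assigned to the exchanger gene Slc9b2 (2.27) lay in an intron of Bdh2, 11.2 kb before the Slc9b2 start. Slc9a3r2 had its lower region, of score 5.32, 619 bases inside its start at chr17:24649385-24649686.

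Other ion carriers were split. The potassium-dependent sodium-calcium exchanger genes Slc24a2 and Slc24a4 had higher intronic regions of score 1.85 and 1.69, and Slc24a4 also had a lower region of 1.73. Slc12a2, the sodium-potassium-chloride cotransporter that sets chloride in immature neurons, had a higher intergenic region of 1.61, 11.4 kb before its start. Slc12a9, another member of that cotransporter family, had a lower region of 2.86 in intron 4. The 13 higher regions had a median score of 2.04, and 4 of them reached the median of the whole higher list, 2.52.

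The SLC35 family had 9 regions, more than any other family, and 7 were lower. Its share higher was 22.2% (2.81 to 60.0), against 64.2% over all regions. That interval counts regions, so Slc35a3 and Slc35c1 enter it with 2 each. By gene, 2 of 7 had higher regions alone and 5 lower regions alone. Over all regions, by nearest start, these were 2895 and 1553 of 4741 genes. Among the lower genes only Slc35f4 held its region, and the others were linked by nearest start. The family was 1 of 27 looked at, and the difference was not tested. Slc35a3, which carries UDP-N-acetylglucosamine into the Golgi, had 2 lower regions before its start, at 6.16 kb and 23.4 kb, with scores of 2.19 and 3.67. Slc35c1, the GDP-fucose carrier, had 2 lower regions as well. A promoter-class region of 3.45 lay at chr2:92462483-92462751, before its start, and an intergenic region of 1.90 lay past the end of the gene. Slc35e3 had a lower promoter-class region of 2.30 at chr10:117747558-117747920. Slc35f5 had a lower region of 4.76, in the intergenic sequence 52.2 kb before its start, and Slc35f4 one of 2.08 in intron 1. The higher regions were in Slc35f1 (1.95, intron 1) and Slc35f3 (2.69, intron 2). The members of the 35e and 35f branches were classed with the sugars by family number, and their substrates are not established as nucleotide sugars.

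**Figure D2:**
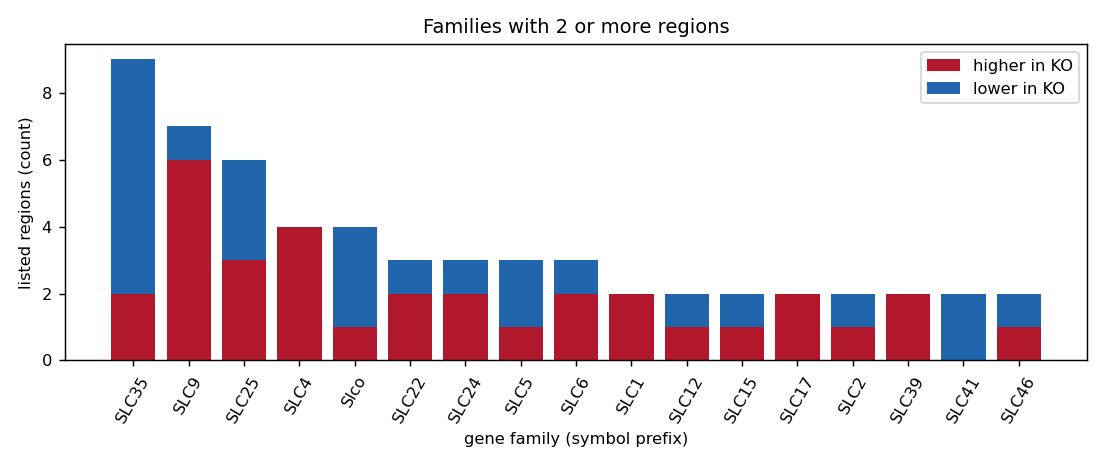
Number of listed regions (vertical axis) per symbol family with at least 2 regions (horizontal axis), with the higher list in red and the lower list in blue. SLC35 has 2 higher and 7 lower regions, SLC9 has 6 and 1, of which the lower one belongs to the scaffold gene Slc9a3r2, and SLC4 has 4 and 0. Over all listed regions the share higher is 64.2%.

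Sugar carriers proper had 4 lower and 3 higher regions. The lower region assigned to Slc2a2, the glucose transporter of liver and pancreatic beta cells, scored 5.38, but lay 66.8 kb before that start in an intron of Tnik. Slc37a1, a glucose-6-phosphate antiporter, had a lower region of 3.33 in intron 2, and Slc5a4b, a sodium-coupled sugar carrier family member, one of 3.07 in intron 5. Slc45a1, a proton-coupled sugar transporter found in brain, had a higher region of 4.23 in intron 1. Slc2a12 had a higher intergenic region of 1.48, 28.6 kb before its start, the lowest score among the higher solute carrier regions. Slc5a11, a sodium-dependent inositol carrier, had a higher region of 2.75 in the promoter class of an alternative transcript and a lower region of 1.58 in intron 9. That promoter-class region lay 22.5 kb inside the RefSeq gene, so its class refers to an annotated start within the gene.

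The 3 regions of neurotransmitter carriers were in the higher list and at or above its median score. Slc17a6, the vesicular glutamate transporter VGLUT2 of subcortical excitatory neurons, had the highest score of all higher solute carrier regions, 9.66, at rank 45 of 3488. The region, at chr7:51603210-51603614, was intergenic and 18.4 kb before the start. Slc17a8, the related vesicular transporter VGLUT3, had a region of 2.82 in exon 7. Slc6a11, the GABA transporter GAT3 of astrocytes, had one of 3.19 in intron 4.

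Amino acid carriers had regions in both directions. Slc1a3, the glutamate transporter GLAST of radial glia and astrocytes, had a higher region of 1.95 at chr15:8712927-8713359, 2.16 kb before its start. Slc1a1, the neuronal glutamate and cysteine transporter, had a higher intergenic region of 2.04, 6.28 kb before its start, and Slc38a6, of the glutamine transporter family, one of 4.54 in intron 5. Slc6a15, a neutral amino acid carrier of neurons, had a higher region of 1.95 in intron 5 and a lower region of 4.32 in intron 10, 14.1 kb apart. Slc15a5, of the peptide transporter family, had a higher promoter-class region of 1.69 and, 22.3 kb away, a lower intergenic region of 1.36. The lower region of Slc7a11, the cystine-glutamate exchanger that supplies glutathione synthesis, scored 3.21. It was placed in the last intron of an alternative transcript, but lay 472.9 kb from the RefSeq start of a gene 134.2 kb long. It is therefore far outside the RefSeq gene body.

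Carriers of carboxylates and metals held some of the higher scores. Slc13a3, a sodium-dependent dicarboxylate carrier, had a higher region of 4.72 in intron 4. Slc30a2, the zinc exporter ZnT2, had the highest score among higher regions of transport proteins after Slc17a6, 7.55 at rank 83, at chr4:134341665-134342177, 1.004 kb before the start in the promoter class. Slc39a11, a zinc importer family member, held 2 higher regions of 2.93 and 2.04. The magnesium carrier genes Slc41a2 and Slc41a3 had lower regions, of 2.30 in intron 4 and 5.68 in exon 4. Slc41a3 thus ranked 124 of 1944 in the lower list.

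Slc25a12 had the highest score among the carrier regions of the lower list, 11.02, at rank 10 of 1944. It encodes the mitochondrial aspartate-glutamate carrier of brain and muscle, and the region lay in intron 2 at chr2:71350199-71350678, 17.1 kb from the start. The other lower mitochondrial carriers were Slc25a21, the oxodicarboxylate carrier, with an intronic region of 2.22, and Slc25a36, a pyrimidine nucleotide carrier, with a promoter-class region of 2.22. Slc25a26, which imports S-adenosylmethionine, had a higher region of 3.39 in intron 5, and Slc25a41, an ATP-magnesium phosphate carrier, one of 2.17 in intron 4. The region assigned to the pseudogene Slc25a5-ps scored 7.24 in the higher list but lay in an intron of Fhit, 184.2 kb from that start.

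Carriers of organic anions and cations had 4 regions in each list. The 4 lower regions scored between 3.33 and 3.91, each above the lower list's median of 2.66. The 4 higher regions scored between 1.69 and 3.17, and 1 of them reached the higher list's median. Scores of the lists may not share a scale, so each was read against its own list. Slc22a2, the organic cation transporter OCT2, had a lower region of 3.67 in intron 6, at chr17:12612008-12612279. Slco2a1, the prostaglandin transporter, had a lower region of 3.77, Slco1a4, an organic anion transporter of the blood-brain barrier, one of 3.91, and Slco5a1 one of 3.33. Slc22a23 held 2 higher intronic regions of 2.04 and 1.69, Slc10a7 had a higher region of 1.69, and Slco1a5 a higher promoter-class region of 3.17.

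Vitamin and lipid-related carriers completed the set. Slc19a3, a thiamine transporter, had a lower region of 4.32 in intron 3, and Slc52a3, a riboflavin transporter, a lower intergenic region of 2.22. Slc44a1, a choline transporter, had a higher region of 1.85 in intron 12. Slc46a3, a lysosomal carrier, had a higher region of 2.41 and a lower region of 3.33, both before its start and 6.61 kb apart, the closest pair among the carriers.

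**Figure D3:**
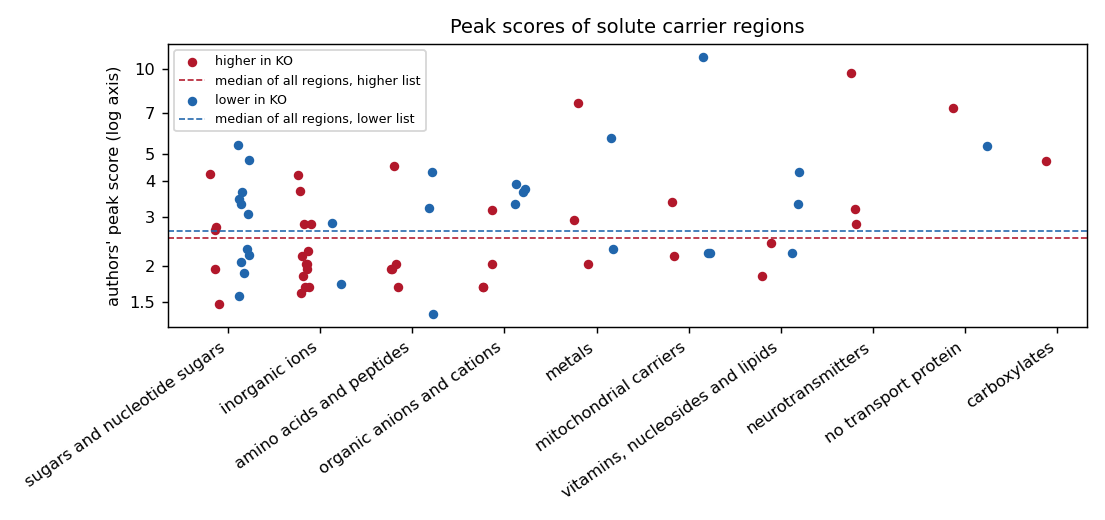
Authors' peak score (log axis, scale not stated) of each of the 68 regions by substrate class, in red for the higher and blue for the lower list, with dashed lines at the median of all regions of each list (2.52 and 2.66). Points are spread sideways for visibility; Slc25a12 in the lower list (11.02) and Slc17a6 in the higher list (9.66) stand at the top.

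Scores of the carrier regions reached 9.66 among 39 higher regions and 11.02 among 29 lower regions, while the lists ran to 4949.74 and 27.5. By rank, Slc17a6 (rank 45 of the higher list) and Slc25a12 (rank 10 of the lower list) were near the top. The median score of carrier regions in the higher list was 2.17 (95% interval 1.95 to 2.82), against 2.52 over all higher regions. In the lower list it was 3.33 (2.22 to 3.77), against 2.66. Of 39 higher carrier regions, 17 (43.6%) were at or above the median of their list, against 56.4% of all higher regions, since scores are tied. Of 29 lower regions 18 (62.1%) were, against 51.3%. The scores were stepped rather than continuous. The 3488 higher regions took 190 distinct values, and a score of 1.95 was shared by 534 of them, among them those of Slc1a3, Slc6a15, Slc9a8 and Slc35f1. Regions with the same score cannot be ranked against each other. Widths ran from 278 to 713 bp in the higher list, with a median of 418 bp, and from 267 to 660 bp in the lower list, with a median of 371 bp. The medians over all regions were 404 and 357 bp.

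Carrier regions lay mostly in introns. The intron class held 45 of 68 (66.2%, 53.7 to 77.2), against 35.8% of all regions, and the distal intergenic class 12 (17.6%, 9.46 to 28.8), against 47.4%. This contrast is partly built in, because regions held by a carrier gene were members by rule. Among regions with a carrier as the nearest start, introns held 51.1% and intergenic sequence 25.5%. Promoters held 9 of 68 (13.2%), against 12.7% of all regions, and 2 regions (2.94%) were exonic, against 2.15%. No carrier region was in a UTR or the downstream class, and 0 of 68 has an exact upper limit of 5.28% in each. These classes are rare over all regions too, with 0.11% in the 5' UTR, 0.72% in the 3' UTR and 1.16% downstream. Of 42 intronic regions held by a carrier gene, 4 (9.52%) were in the first intron, against 26.6% of all intronic regions. These sets were not matched for the number of introns per gene, and the difference was not tested. By position, 42 of 43 held regions with a known strand lay inside the RefSeq gene body, with a median of 53.3% and quartiles of 40.9% and 65.8% of the way along the gene. The 38 carrier genes that held a region had a median length of 95.4 kb, against 27.1 kb for the carriers that held none. The same contrast was wider over all protein-coding genes, with 127.8 kb against 15.6 kb. In all 21 regions held by a carrier but nearer to another start, that start belonged to a predicted gene with a Gm number. The share over regions held by other genes was not counted, so nothing about carriers is read from this.

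Of the 57 genes, 11 had 2 regions and none had more. Both regions were higher at Slc4a4, Slc9a7, Slc22a23 and Slc39a11, and both lower at Slc35a3 and Slc35c1. Slc5a11, Slc6a15, Slc15a5, Slc24a4 and Slc46a3 had 1 in each list. By nearest start alone, 3 of 41 carrier genes were in both lists, against 293 of 4741 genes over all regions. The gap between the paired regions ran from 6.61 kb at Slc46a3 to 106.7 kb at Slc39a11. Of the 68 regions, 31 (45.6%) had another listed region of any gene within 100 kb, against 35.8% of all regions, and in 18 of these (58.1%) the nearest such region was in the same list. Over all regions the share in the same list was 54.2%. The 31 include both regions of every pair above except that at Slc39a11, so this count is not separate from the pairs. These differences were not tested.

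**Figure D4:**
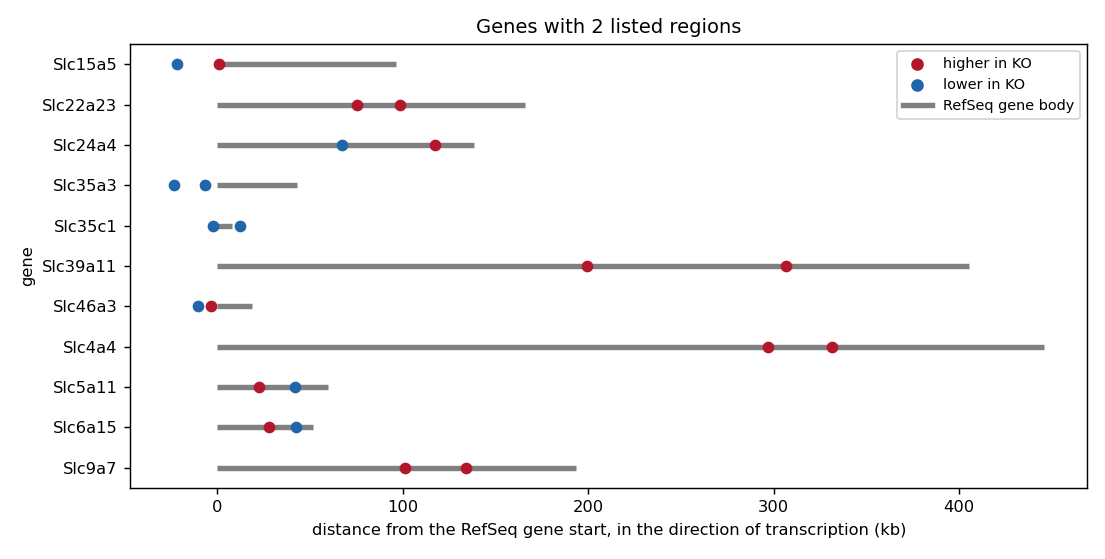
Position of both regions in the 11 carrier genes with 2 regions, in kb from the RefSeq gene start in the direction of transcription (negative values lie before the start), with the gene body in grey and regions in red for the higher and blue for the lower list. The pairs at Slc35a3, Slc46a3 and Slc35c1 lie before or past the gene, and those at Slc39a11 and Slc4a4 lie deep inside it.

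A further 10 regions overlapped the RefSeq body of a carrier gene but were assigned to other genes in the deposited rows, and so were not members. They included a lower region of score 8.13 within Slc39a11, assigned to the somatostatin receptor gene Sstr2, and a second lower region within Slc25a12, of score 2.22. A higher region of 6.62 lay within Slc44a5, a choline transporter-like gene, and another of 2.17 within Slc1a1. With the first of these, Slc39a11 holds regions of both lists.

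Carriers known from particular cells were also counted, from lists written with earlier results of these data known. Of 19 carriers of neurons and astrocytes, 7 had regions, and all 8 regions were in the higher list: Slc1a1, Slc1a3, Slc6a11, Slc17a6, Slc17a8, Slc24a2 and Slc4a4 with 2. The exact interval, 63.1 to 100%, reaches just below the 64.2% of all regions. Slc6a15 and Slc4a8, also carriers of neurons, are not on that list, and Slc6a15 had a lower region beside its higher one. As background, 14.51% of solute carrier genes and 10.8% of all protein-coding genes had a region, and nothing is read from the larger share of a list written with results known. Of 13 carriers of microglia and macrophages, Slc9a9 (higher) and Slc46a3 (1 in each list) had regions, while the fructose transporter gene Slc2a5, the organic anion carrier gene Slco2b1 and the phagosomal metal transporter gene Slc11a1, all typical of microglia or macrophages, were in neither list. Of 17 carriers of vessels, choroid plexus and erythroid cells, Slco1a4 was lower and Slc4a5 higher. H3K9me3 in the sorted cells and in any cells carried over cannot be told apart in these lists.

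Other transport genes were counted too. The number of genes in each class was not counted, so these counts are not compared with the solute carriers. ABC transporters had 8 higher and 4 lower regions at 10 genes, P-type ATPases 3 and 4 at 6 genes, V-type ATPase subunits 2 and 1 at 3 genes, and solute carriers named by other symbols 1 and 3 at Mfsd2b, Sfxn3, Sfxn5 and Xpr1. Each of these classes had an exact interval that reaches the 64.2% of all regions.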

How the data were processed

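CUT&Tag libraries of H3K9me3 and IgG were made from 100000 sorted microglia each and amplified by PCR (14 cycles), per the labels' protocols. CASAVA 1.4, Bowtie2 2, FastQC and the build mm9 are named in the submitters' processing notes. How peaks were called, whether IgG was used and what put a region in a list: not given in the sources used here. Per region, the authors' deposited tables give a position, an annotation and a peak score, whose scale is not stated. The score was used to describe and rank regions within a list. The other deposited values, positions and lengths in base pairs, came from the same tables.

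The positions cannot be mm9. Of the listed regions, 20 end past the end of an mm9 chromosome, 7 of them on Y. They were read as GRCm38, and 42 of 43 regions held by a carrier with a known strand and position lay inside that gene in the RefSeq table of GRCm38.p6. All 57 symbols matched that table. Upstream sequences are RefSeq's, and 48 of 57 genes had one. Overlapping windows on opposite strands read the same in 1627 of 1627 pairs.

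The members, gene lists and substrate classes were chosen with earlier results of these data known. Genes were classed by family number, with exceptions listed by gene, and named by a rule: the highest scores per class and list, genes with 2 regions, promoter or exon regions, or in both lists, and the cell lists. The remaining members were added once their values were known. Some genes that the symbol rule selects are not reported here and enter no count of carriers. Shares have exact Clopper-Pearson 95% intervals, and densities exact Poisson ones. No test between genotypes was made, with 1 library each. Alternatives were the link rule, counting each gene once, score limits, merging and autosomes. Linking and intervals were tested on simulated data. Computation used scipy 1.17.1, pandas 2.3.3 and numpy 2.4.6 under Python 3.11.15, and figures matplotlib 3.10.9.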

Additional observations from a re-analysis of the deposited data

How the results depend on the processing

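The share of carrier regions in the higher list, 57.4%, ranged from 48.6% (regions at or above their list's median score) to 61.4% (gene that holds the region) over 10 alternatives, and was below the 64.2% of all regions in each. It was 55.3% by nearest start, 56.1% on autosomes, 57.7% with each gene counted once and 50.0% for scores at least 1 above the smallest. Leaving out Slc9a3r2 and Slc25a5-ps (57.6%) and adding regions that overlap RefSeq bodies (57.7%) were chosen after the data were seen. Merging regions within 10 kb joined none and left the share at 57.4%. All these values lie within the interval of the main share. They come from mostly the same regions, and the 64.2% was not recomputed under each alternative. They are therefore not separate support for a lower share. The 26 alternatives by substrate class stayed within the interval of their class as well. They reuse the same regions and most class intervals are wide, so this had little room to come out otherwise. The carboxylate class had no region by nearest start and so no value there. By nearest start, sugar carriers had 4 of 13 regions in the higher list and ion carriers 8 of 9, and when only the holder counted 3 of 7 and 11 of 13. The interval for sugar carriers stayed below 64.2% by nearest start (upper end 61.4%), but not with the holder alone (81.6%) or each gene once (65.1%). The intron share moved from 66.2% to 51.1% by nearest start, since that rule drops regions held by a carrier. With 1 library per genotype no replicate could be left out. No paired analysis was possible because each group has 1 library. The files give no depth, so how far it limits the lists was not measured.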
